A study of Mus musculus with 6 samples.

Results

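CD8 T cells in which neither Tcf7 nor Havcr2 was detected were examined in single-cell RNA sequencing libraries of mouse ovarian tumors. Counts are of unique molecular identifiers (UMIs), each of which stands for 1 captured RNA molecule. Cells with at least 250 detected genes and at most 5% mitochondrial UMIs were kept. T cells had at least 3 UMIs of Cd3d, Cd3e, Cd3g, Trac, Trbc1 and Trbc2 together, and CD8 T cells at least 1 UMI of Cd8a or Cd8b1, with none of Cd4, Foxp3 or Cd79a. At most 5 UMIs of the macrophage genes Lyz2, C1qa, C1qb and C1qc and at most 1 of the cycling genes Mki67 and Top2a were allowed. Of 51633 cells that passed the filters, 6209 were such non-cycling CD8 T cells, and 2343 of these had no UMI of Tcf7 or Havcr2 (37.7% of non-cycling CD8 T cells, 4.54% of all cells that passed). They are called Tcf7- Havcr2- cells. The cells were chosen by their own UMIs of these genes, so levels of the genes used are descriptions and not results. The cells set beside them were 3131 Havcr2+ CD8 T cells, with or without Tcf7, and 735 Tcf7+ CD8 T cells without Havcr2. A further 1770 cycling CD8 T cells were left out.

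CD8 T cells kill tumor cells through perforin and granzymes and release cytokines such as IFNγ. Under lasting antigen in tumors they pass from progenitor-like cells, which keep the transcription factor TCF1 (encoded by Tcf7), to terminally exhausted cells, which carry TIM-3 (encoded by Havcr2) beside other inhibitory receptors and depend on the factor TOX. CD8 T cells that lack both transcripts can be effector cells, tissue-resident cells or cells between these states, and a cell whose few transcripts of either gene were not captured also falls here.

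Each of the 6 libraries was made from 1 mouse. The first was of a control mouse, and the mice of the others had received, in this order, 2DG, 2FF, an antibody to PD-L1 (anti-PD-L1), that antibody with 2DG, and that antibody with 2FF. Values are given in this order of libraries throughout. Female C57BL/6 mice, 6 to 8 weeks old, carried orthotopic tumors of KPCA cells, a single mouse ovarian cancer line with proficient homologous recombination. Mice of the control group received solvent and rat IgG. 2DG is a glucose analog that lowers N-glycan branching and 2FF a fluorinated fucose that blocks fucosylation, and both were given every 2 days, 2FF after implantation and 2DG from day 9, when tumors could be felt. For the 2FF mice the KPCA cells had themselves spent 3 days in 2FF ahead of the injection. PD-L1 is the ligand of the inhibitory receptor PD-1, and the antibody was given at 5 mg/kg, 2 times per week for 3 weeks, and mice were killed on day 30. The methods of the study describe cells of the tumors, whereas lymph node is the tissue named in the sample labels and young and aged mice are named in the series text. Mice were thus mapped to groups by treatment only, and with 1 mouse per treatment no test between treatments was made.

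The deposited files held 404341447 UMIs in 57078 cells. Tcf7- Havcr2- cells numbered 36, 453, 562, 504, 537 and 251 in the 6 libraries and carried 12516716 UMIs in all, but only 165378 of these were from the control library. Their median depth per cell was 4787, 5226, 4754.5, 4960.5, 4896 and 6607 UMIs. Values of the control library thus rest on 36 cells and are the least precise. Levels below are UMIs of a gene summed over the cells of a group in 1 library, divided by all UMIs of those cells and multiplied by 1000000 (CPM). CPM is not scaled to transcript length, and UMIs were counted at 1 end of a transcript. Between any 2 libraries, 0.345% or fewer of the barcodes of the smaller library were shared.

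The label CD8 T cell was checked first. Cd8a, the alpha chain of the CD8 co-receptor, stood at 611, 589, 704, 636, 610 and 671 CPM in Tcf7- Havcr2- cells, and Cd8b1, the beta chain, at 357, 470, 529, 511, 545 and 438 CPM. In cells that were not T cells, Cd8a did not exceed 6.34 CPM in any library. The rule asked for a UMI of these genes, so their level is a description. Of the genes that mark this group, Ccl5, a chemokine of effector and memory T cells, was found in 91.7% to 96.5% of its cells in the 6 libraries. Cxcr6, a chemokine receptor of tissue T cells, was found in 66.7% to 74.2% of them. Itga1, which encodes the collagen-binding integrin CD49a of resident T cells, had a UMI in 1198 of the 2343 cells (51.1%). In cells that were not T cells Cxcr6 had a UMI in 1.46% to 3.63%, Itga1 in 9.56% to 19.4% and Ccl5 in 8.67% to 48.3%, with a median depth of 6196 to 7732 UMIs over all cells that passed. Ccl5 and Cxcr6 did not mark Tcf7- Havcr2- cells alone, since Havcr2+ cells held a mean of 9348 and 470 CPM of them against 6894 and 354 CPM.

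Transcripts of other cell types were also present. The 8 NK cell markers came to 302, 689, 1081, 725, 872 and 442 CPM, against a mean of 435 CPM in Havcr2+ cells, and 3 of the 5 that could be tested were higher than in Havcr2+ cells. Gzma, which CD8 T cells also express, averaged 532 CPM and made up most of this in the 5 treated libraries, whereas Fcer1g averaged 67.7, Tyrobp 58.2 and the defining marker Ncr1 3.57 CPM. In the control library Gzma was at 42.3 CPM, Fcer1g at 133 and Tyrobp at 109 CPM. The 12 macrophage markers together came to 204 to 296 CPM in Tcf7- Havcr2- cells, against 4830 to 7437 CPM in cells that were not T cells. Against Havcr2+ cells 5 of the 8 macrophage markers that could be tested were lower and none higher. Ctsb, a protease gene that T cells also use, was the most abundant of them at a mean of 142 CPM, and Lyz1 was at 0. The 9 B and plasma cell markers came to 25.8 to 76.6 CPM, mostly Igkc. The 8 tumor epithelial markers stayed under 4.66 CPM in each library, with Krt19 and Cldn4 at 0. The 8 gamma-delta T cell markers came to 38.3 to 109 CPM, with Tcrg-C2 as the most abundant and Sox13 at 0. The control library stood apart. Its 36 cells held 1905 CPM of the 8 neutrophil markers, with S100a8 at 375 and S100a9 at 587 CPM, whereas the other 5 libraries held 72.4 to 344 CPM. It also held 840 CPM of the 9 dendritic cell markers, led by H2-Ab1 over all libraries, against 112 to 393 CPM in the others. The part of these transcripts in the results below was not tested directly, but the comparisons between cell groups below were repeated without cells that carried myeloid, B cell or NK cell UMIs, and those with Havcr2+ and Tcf7+ cells also without the control library. The comparisons between treatments were not repeated in this way.

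Absence of Havcr2 and Tcf7 depends on how deeply a cell was read. The median UMIs per cell of Tcf7- Havcr2- cells differed from those of Havcr2+ cells by a mean of -1599 (SD of the 6 differences 198) and were lower in 6 of 6 libraries. The mean difference from Tcf7+ cells was -896 UMIs (SD 1275), again lower in 6 of 6 libraries. The rule asked for no UMI of either gene and so was itself not independent of depth, and these differences are a description with no test. When every cell was thinned to 2000 UMIs and the rule applied again, 29.2% to 37.3% of Havcr2+ cells and 22.5% to 32.8% of Tcf7+ cells of a library lost their last UMI of the gene and fell among the Tcf7- Havcr2- cells, whose share of non-cycling CD8 T cells was then 62.1%. Of the 3878 cells that met the rule after thinning, 1846 had been Tcf7- Havcr2-, 1087 Havcr2+ and 211 Tcf7+ at full depth, and 734 had been in none of these groups. How many of the 2343 cells carried a transcript that was not captured was not measured.

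Values on either side of the thresholds are given as a description. Lag3, an inhibitory receptor gene, averaged 203 CPM over the libraries in cells with no Havcr2 UMI, 322 in cells with 1 and 418 in cells with 2 or more. Gzmb, which encodes granzyme B, averaged 352, 611 and 968 CPM in the same 3 bins. Gzma, which encodes granzyme A, averaged 532, 452 and 266 CPM and was highest with no Havcr2 UMI in 5 of 6 libraries, the exception being the control library with 42.3, 567 and 179 CPM. Tox averaged 1708, 1579 and 1505 CPM but its level went down over the 3 bins in only 2 of 6 libraries (2DG and 2FF). On the Tcf7 side, Ccl5 averaged 6894 CPM with no Tcf7 UMI and 3035 CPM with 1 UMI, and Il7r, the receptor chain for the survival cytokine IL-7, averaged 161 and 427 CPM.

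Tcf7- Havcr2- cells made up a similar part of non-cycling CD8 T cells in most libraries. Their share was 35.0% in the control library (36 of 103 cells, exact Clopper-Pearson 95% interval 25.8 to 45.0) and 44.1% with 2DG (453 of 1028, 41.0 to 47.2). It was 35.7% with 2FF (562 of 1574, 33.3 to 38.1) and 38.8% with anti-PD-L1 (504 of 1298, 36.2 to 41.5). In mice also given anti-PD-L1 it was 37.6% for 2DG (537 of 1429, 35.1 to 40.1) and 32.3% for 2FF (251 of 777, 29.0 to 35.7). The share with 2DG was the highest, and its interval overlapped those of the control and anti-PD-L1 libraries but not those of the other 3. Havcr2+ cells were the more numerous group in each library except 2DG, where 39.9% of non-cycling CD8 T cells had Havcr2. Over all T cells, Tcf7- Havcr2- cells made up 7.27% in the control library and 14.98%, 16.7%, 16.8%, 17.1% and 11.6% in the others, so the control library was lowest by this denominator. These intervals hold counting error alone and no spread between mice.

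**Figure D1:**
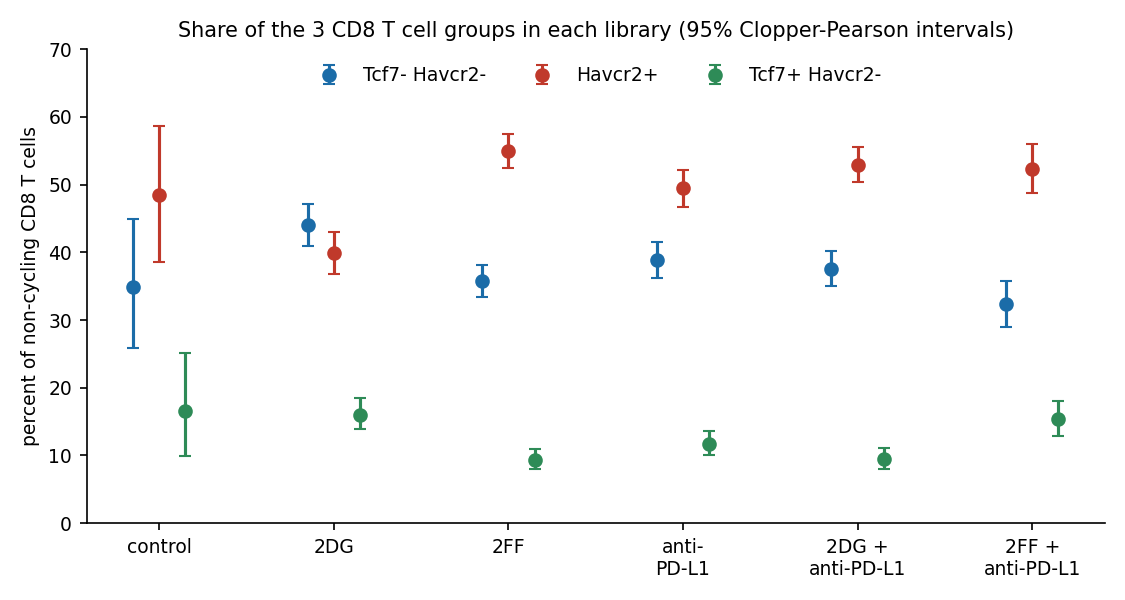
Share of non-cycling CD8 T cells (y axis, percent) that were Tcf7- Havcr2- (blue), Havcr2+ (red) or Tcf7+ Havcr2- (green) in each of the 6 libraries (x axis, 1 mouse each), with exact 95% Clopper-Pearson intervals. Tcf7- Havcr2- cells lie between 32.3% and 44.1%, and the control library has the widest interval.

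Gene expression was compared between cell groups within libraries. UMIs were summed per group and library and tested with edgeR's quasi-likelihood test with the library as a block, since each mouse supplied both groups, and p-values were adjusted by the Benjamini-Hochberg method over all genes tested. Against Havcr2+ cells, 10064 genes were tested, and 870 were higher and 904 lower in Tcf7- Havcr2- cells (17.6% called; 8.64% higher and 8.98% lower). Against Tcf7+ cells, 7782 genes were tested, and 575 were higher and 709 lower (16.5% called; 7.39% higher and 9.11% lower). The median log2 fold change over all genes tested was -0.0022 and -0.0025, so a list with a median near 0 is like the rest of the genes. Both comparisons use the same Tcf7- Havcr2- cells, so their values are set side by side and not compared with each other. Without the library as a block, the first comparison called 325 genes and the second 586. After thinning to 2000 UMIs fewer genes could be tested, and 639 of 7936 (8.05%) and 541 of 2681 (20.2%) were called.

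Among the 24 genes named for the largest differences from Havcr2+ cells, the highest in Tcf7- Havcr2- cells was Pdlim1, which encodes a cytoskeletal adaptor of PDZ and LIM domains. It stood at 48.4, 16.7, 16.8, 28.3, 26.8 and 15.6 CPM in Tcf7- Havcr2- cells and at 13.5, 6.33, 5.03, 8.41, 5.24 and 8.14 CPM in Havcr2+ cells, higher in 6 of 6 libraries (log2 fold change 1.70, SE 0.18, adjusted p = 5.5e-07). Rap1gap2, which encodes an inactivator of the GTPase Rap1, followed at 1.60, Fgf13, of an intracellular fibroblast growth factor, at 1.59, and Tnfsf8, of the CD30 ligand, at 1.54. Trat1, an adaptor of the T cell receptor, was at 1.51. Lrig1, Aff3, Cmah, Pakap, Samd3, Evl and Clec2i lay between 1.23 and 1.53. The lowest was Serpine2, which encodes a serine protease inhibitor, at 12.1, 12.3, 60.5, 30.2, 25.4 and 20.4 CPM against 138, 110, 193, 123, 182 and 158 CPM (log2 fold change -2.36, SE 0.14, adjusted p = 1.8e-10). Every Havcr2+ value of Serpine2 lay above every value in Tcf7- Havcr2- cells. Myo10, an unconventional myosin of filopodia, was next at -1.83 (SE 0.09). Prf1, which encodes perforin, stood at -1.33 and Gzmb at -1.19 among the 12 lowest, beside Gm36723, Tff1, Filip1, Wscd2, Slc17a6, Acoxl, Sema7a and Gpm6b.

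Against Tcf7+ cells, Slc17a6 (log2 fold change 3.22, SE 0.25), Wscd2 (3.12) and Adgrg1 (3.01), of the adhesion receptor GPR56, were highest in Tcf7- Havcr2- cells. Lag3 (2.08), Prf1 (1.91), Entpd1 (1.91) and Gzmb (1.85) were among the 12 highest as well, with Gm36723, Adamts14, Filip1, Styk1 and 2900026A02Rik. Entpd1 encodes CD39, an enzyme that degrades extracellular ATP and marks T cells stimulated by tumor antigen. The 12 lowest were led by Aff3 (-2.82), a nuclear factor gene, and Cmah, whose enzyme converts the sialic acid of cell surface glycans. Slamf6 (-2.22), a receptor of progenitor-like CD8 T cells, Fgf13 (-2.00) and Tnfsf8 (-1.92) were among them, with Rapgef4, Sh3bp5, Fam241a, Pde2a, Patj, Adk and Sidt1. Fgf13, Tnfsf8, Aff3 and Cmah were thus lower than in Tcf7+ cells and higher than in Havcr2+ cells.

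Most inhibitory receptors and other exhaustion genes were lower than in Havcr2+ cells and higher than in Tcf7+ cells. Of the 16 genes of this list, 3 were higher, 10 lower and 3 not called against Havcr2+ cells, and 12 were higher, 2 lower and 2 not called against Tcf7+ cells (median log2 fold change of the list 0.93). After thinning to 2000 UMIs, 10 of the 10 genes lower and 1 of the 3 higher than in Havcr2+ cells, and 8 of the 12 higher than in Tcf7+ cells, kept their call. Here and below, a gene too low to be tested after thinning counts as not kept. Lag3, on chromosome 6 (124904361 to 124911705, GRCm38), stood at 54.4, 189, 336, 226, 217 and 196 CPM in Tcf7- Havcr2- cells. It stood at 279, 375, 500, 413, 382 and 351 CPM in Havcr2+ cells and at 20.8, 69.1, 42.9, 41.3, 51.5 and 52.1 CPM in Tcf7+ cells. Within each library Lag3 was lower than in Havcr2+ cells (log2 fold change -0.82, SE 0.07, adjusted p = 2.0e-08) and higher than in Tcf7+ cells (2.08, SE 0.15, adjusted p = 2.1e-08), and the control library was lowest in all 3 groups.

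Pdcd1, which encodes PD-1, varied little between libraries, at 187, 200, 218, 209, 209 and 169 CPM. It was lower than in Havcr2+ cells in 5 of 6 libraries (log2 fold change -0.38, SE 0.06, adjusted p = 8.2e-05) and higher than in Tcf7+ cells in 6 of 6 (1.17, SE 0.10, adjusted p = 2.2e-07). Tnfrsf9, of the activation receptor 4-1BB, was at -0.90 and 1.31, Entpd1 at -0.73 and 1.91, Rgs16, a brake on G protein signals, at -0.48 and 1.72, and Ctla4 at -0.27 and 0.70 in the same 2 comparisons. Tigit, a receptor for nectins, was at 0.53 over Tcf7+ cells and was not called against Havcr2+ cells (-0.05). The exceptions were Btla, higher than in Havcr2+ cells (0.67) and lower than in Tcf7+ cells (-1.86), Nr4a3, a factor induced by antigen (0.34 and -0.34), and Tox. After thinning the difference in Nr4a3 from Havcr2+ cells was -0.028 and not called (adjusted p = 0.91).

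Tox, on chromosome 4 (6686353 to 6991557), was the most abundant gene of the list. Its level was 1796, 2029, 1591, 1676, 1455 and 1701 CPM in Tcf7- Havcr2- cells, 1576, 1553, 1311, 1539, 1345 and 1644 CPM in Havcr2+ cells, and 646, 1254, 788, 1177, 638 and 851 CPM in Tcf7+ cells. Tcf7- Havcr2- cells were highest in each library, by 0.19 on the log2 scale over Havcr2+ cells (SE 0.04, adjusted p = 0.0030) and by 0.88 over Tcf7+ cells (SE 0.08, adjusted p = 6.5e-07). The small difference from Havcr2+ cells was 0.0035 after thinning (adjusted p = 0.98) and 0.19 without the library block (adjusted p = 0.35). It was 0.12 without cells that carried myeloid, B or NK UMIs (adjusted p = 0.12), and was not called in any of these cases.

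**Figure D2:**
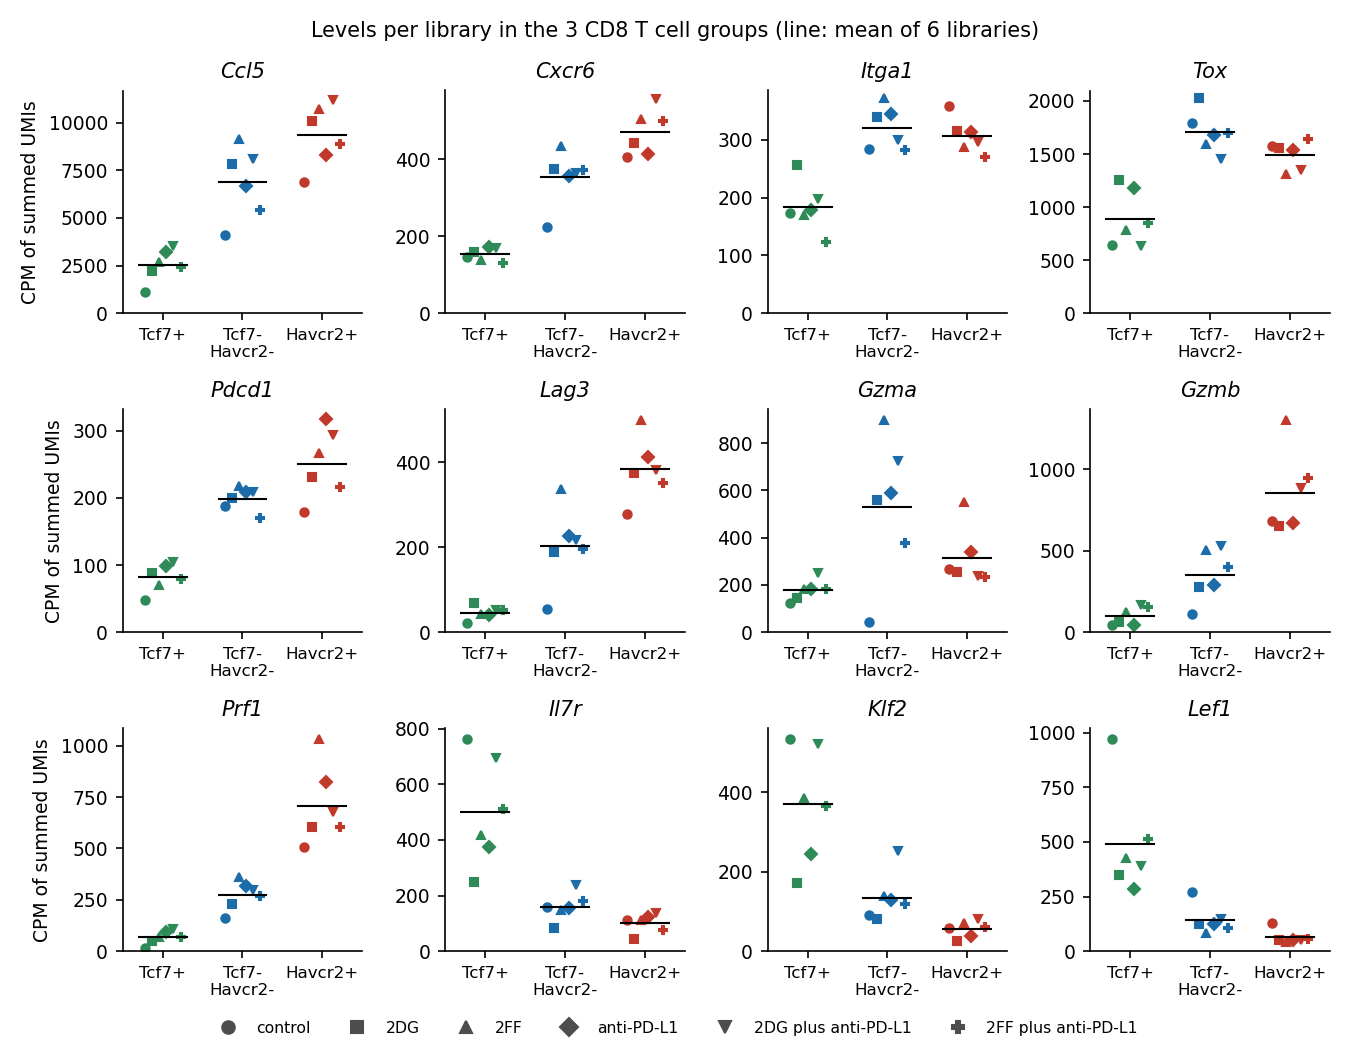
Level of 12 genes (y axes, CPM of summed UMIs, linear from 0) in Tcf7+ (green), Tcf7- Havcr2- (blue) and Havcr2+ (red) CD8 T cells. Each symbol is 1 library and the line is the mean of the 6, with Tcf7- Havcr2- cells between the others for Ccl5, Lag3, Gzmb, Prf1, Il7r, Klf2 and Lef1 and highest by mean for Tox and Gzma.

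Cytotoxic genes split into granzyme B with perforin, which were lower than in Havcr2+ cells, and granzyme A, which was higher. Of 14 cytotoxic granule genes tested against Havcr2+ cells, 5 were higher, 7 lower and 2 not called, and of 12 tested against Tcf7+ cells, 8 were higher and none lower. Prf1 stood at 163, 232, 364, 318, 299 and 269 CPM, lower than in Havcr2+ cells in 6 of 6 libraries (log2 fold change -1.33, SE 0.05, adjusted p = 6.8e-13) and higher than in Tcf7+ cells in 6 of 6 (1.91, SE 0.12, adjusted p = 5.1e-09). Gzmb stood at 115, 278, 502, 287, 528 and 400 CPM, with the same order in each library (-1.19 and 1.85). Nkg7, a granule membrane protein gene, and Cst7, an inhibitor of cathepsins, were also lower than in Havcr2+ cells (-0.40 and -0.57) and higher than in Tcf7+ cells (0.93 and 0.64). After thinning, 6 of the 7 genes lower than in Havcr2+ cells, 1 of the 5 higher than in Havcr2+ cells (Gzma) and 5 of the 8 higher than in Tcf7+ cells kept their call.

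Gzma, on chromosome 13 (113093825 to 113100981), stood at 42.3, 559, 900, 588, 725 and 378 CPM in Tcf7- Havcr2- cells. In Havcr2+ cells it was at 268, 255, 552, 338, 239 and 233 CPM, and in Tcf7+ cells at 125, 147, 185, 183, 249 and 181 CPM. Tcf7- Havcr2- cells were highest in each treated library and lowest in the control library, where all 7 UMIs came from 1 cell. The log2 fold change was 0.93 over Havcr2+ cells (SE 0.13, adjusted p = 3.4e-05) and 1.59 over Tcf7+ cells (SE 0.17, adjusted p = 1.7e-06). With DESeq2 the difference from Havcr2+ cells was 0.54 and was not called (adjusted p = 0.62), and without the library block it was 0.83 and not called (adjusted p = 0.22).

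Gzmk and Fasl, of the death ligand FAS ligand, were higher than in both other groups, with log2 fold changes of 0.33 and 0.33 over Havcr2+ cells and of 0.61 and 0.71 over Tcf7+ cells. Fasl was even across libraries, at 187, 149, 160, 155, 156 and 158 CPM. These calls, against Havcr2+ and against Tcf7+ cells, were lost after thinning. Without the library block, that of Fasl was lost against Havcr2+ cells (0.29, adjusted p = 0.16) and kept against Tcf7+ cells. That of Gzmk was lost in both comparisons without the block (adjusted p = 0.54 and 0.054). Against Havcr2+ cells the Gzmk call was also lost without the 2DG plus anti-PD-L1 library (0.065). Against Tcf7+ cells it was also lost without the 2FF (0.057) or anti-PD-L1 library (0.10) or with no macrophage UMI (0.088). Gzmd, Gzme, Gzmf and Gzmg, close paralogs whose reads can be split between copies, averaged under 0.5 CPM in Tcf7- Havcr2- cells and 12.7 to 26.9 CPM in Havcr2+ cells, and were too low for the test.

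Cytokine and chemokine genes of effector cells were called in both directions. Of 13 tested against Havcr2+ cells, 3 were higher, 7 lower and 3 not called, and of 11 tested against Tcf7+ cells, 6 were higher, 1 lower and 4 not called. Ccl5, on chromosome 11 (83525778 to 83530518), was the most abundant, at 4124, 7835, 9139, 6703, 8122 and 5442 CPM, and was lowest in the control library. It was lower than in Havcr2+ cells in 6 of 6 libraries (log2 fold change -0.45, SE 0.05, adjusted p = 3.7e-06) and higher than in Tcf7+ cells in 6 of 6 (1.41, SE 0.09, adjusted p = 6.2e-09). Ifng, which encodes IFNγ, stood at 193, 397, 499, 492, 436 and 571 CPM, with log2 fold changes of -0.57 and 1.54. Csf1, of a growth factor for macrophages, was at -1.25 and 3.18, Ccl3 at -1.29 and 2.18, and Ccl4 at -0.75 and 1.63, the last a pair of inflammatory chemokines.

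The genes that went the other way were Ltb, Tnfsf8 and Xcl1. After thinning only Xcl1 of these 3 kept its call (0.62), and without the library block only Tnfsf8 did, while 6 of the 7 lower genes kept theirs after thinning. Xcl1, a chemokine that draws cross-presenting dendritic cells, stood at 30.2, 117, 220, 90.6, 52.6 and 177 CPM, higher than in Havcr2+ cells in 6 of 6 libraries (log2 fold change 0.99996, SE 0.17, adjusted p = 0.00027). Against Tcf7+ cells the difference in Xcl1 was -0.04 (adjusted p = 0.89). Spp1, of the matrix protein osteopontin, was at -2.44 against Havcr2+ cells, and cells that were not T cells held 1005 CPM of it, so the part of free macrophage RNA in this difference was not tested.

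Genes of lymphocyte circulation and egress were low but not lost. Against Havcr2+ cells 6 of 9 tested were higher and none lower (list median log2 fold change 0.999), and against Tcf7+ cells none of 9 was higher and 7 were lower (median -1.35). Klf2, a factor that drives the egress receptor gene S1pr1, stood at 90.7, 80.0, 140, 129, 252 and 119 CPM. In Havcr2+ cells it was at 59.6, 26.7, 71.1, 38.5, 80.8 and 60.2 CPM, and in Tcf7+ cells at 535, 171, 385, 246, 520 and 365 CPM. Tcf7- Havcr2- cells lay between the other groups in each library (1.36, SE 0.10, adjusted p = 4.6e-09, and -1.35, SE 0.12, adjusted p = 1.9e-07).

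Klf3 behaved alike, with 1.37 and -1.37. Itgb1, of the integrin beta chain that pairs with CD49a, was at 0.999 and -0.57. S1pr1 itself stood at 0, 11.1, 11.1, 19.0, 17.5 and 9.60 CPM, with 2.13 over Havcr2+ cells and -1.79 against Tcf7+ cells. Ccr7, of a chemokine receptor for entry into lymph nodes, was at -2.31 against Tcf7+ cells and was not called against Havcr2+ cells (0.39). After thinning, 4 of the 6 genes higher than in Havcr2+ cells and 3 of the 7 lower than in Tcf7+ cells kept their call.

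Most naive and memory genes had the same place. Of 12 tested in each comparison, 7 were higher, 2 lower and 3 not called against Havcr2+ cells, and 1 was higher, 10 lower and 1 not called against Tcf7+ cells (median -1.54). After thinning, 4 of the 7 higher than in Havcr2+ cells and 5 of the 10 lower than in Tcf7+ cells kept their call. Lef1, a partner of TCF1, stood at 272, 127, 81.6, 124, 148 and 108 CPM, with log2 fold changes of 1.21 (SE 0.08, adjusted p = 8.1e-10) and -1.78 (SE 0.13, adjusted p = 2.3e-08). Il7r stood at 157, 84.3, 149, 154, 238 and 181 CPM, with 0.69 and -1.57. Bach2, a repressor of effector genes, was at 1.09 and -1.51 and was between the other groups in 6 of 6 libraries. Satb1, a chromatin organizer, and Cd27, a costimulatory receptor, did not follow this order. Satb1 was lower than in both other groups (-0.27 and -1.22), and Cd27 was lower than in Havcr2+ cells (-0.37) and higher than in Tcf7+ cells (0.48).

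**Figure D3:**
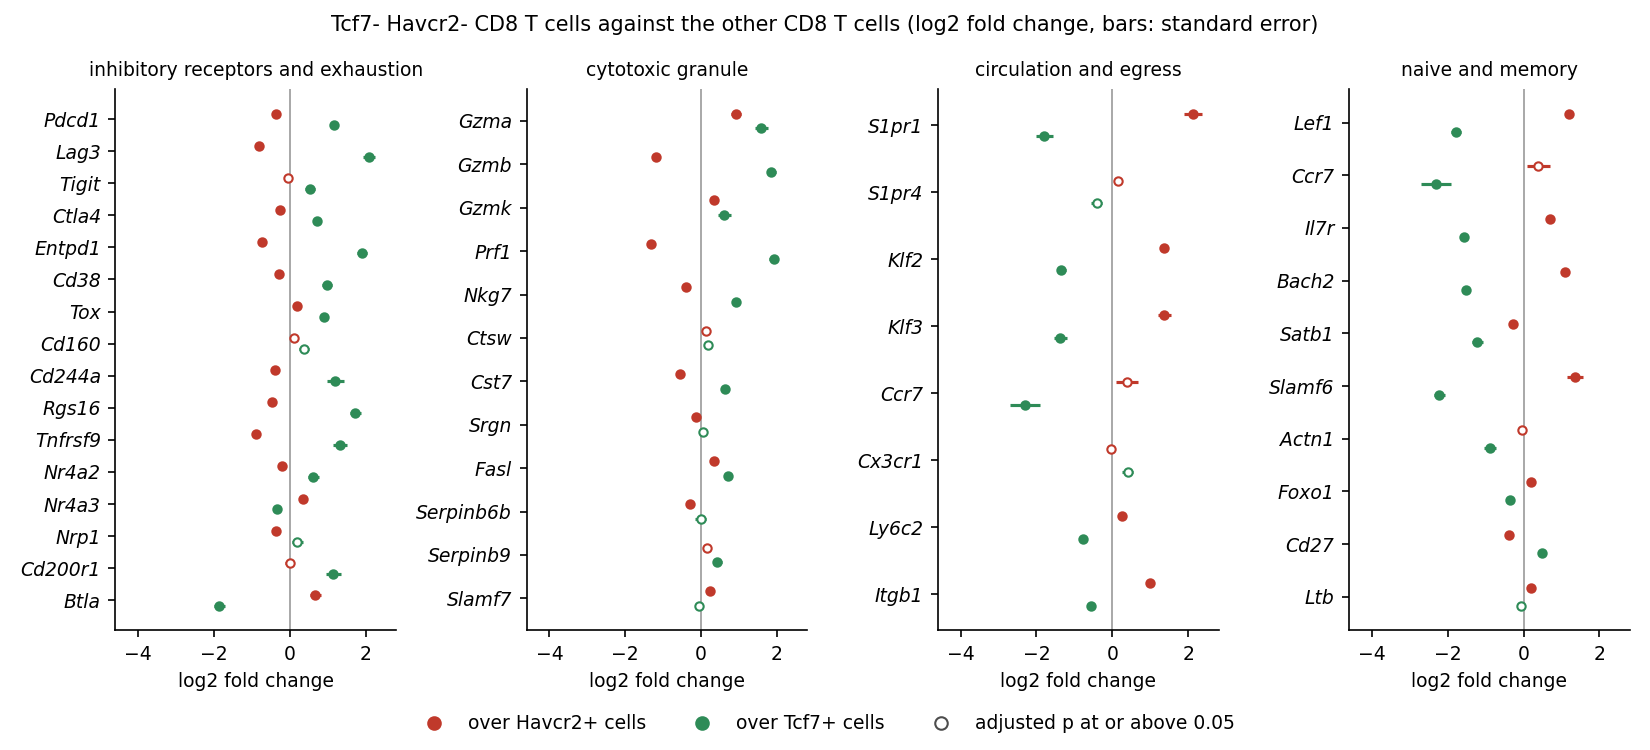
Log2 fold change (x axes) of Tcf7- Havcr2- cells over Havcr2+ cells (red) and over Tcf7+ cells (green) for the genes of 4 lists that were tested in both comparisons and are reported here, with standard errors as bars and open symbols for an adjusted p of 0.05 or above (edgeR). Inhibitory genes lie mostly left of 0 in red and right of 0 in green, and circulation, naive and memory genes mostly the other way. Cytotoxic genes lie on both sides of 0 in red and mostly right of 0 in green. Tox, Gzma, Gzmk and Fasl lie right of 0 in both.

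Residency genes did not move as 1 group. Of 16 tested against Havcr2+ cells, 5 were higher, 3 lower and 8 not called, and of 15 tested against Tcf7+ cells, 6 were higher, 3 lower and 6 not called. After thinning, 7 of the 8 called against Havcr2+ cells and 5 of the 9 called against Tcf7+ cells kept their call. Itga1 stood at 284, 339, 373, 345, 300 and 282 CPM, higher than in Tcf7+ cells in 6 of 6 libraries (log2 fold change 0.78, SE 0.10, adjusted p = 2.1e-05) and not called against Havcr2+ cells (0.13, SE 0.05, adjusted p = 0.10). Cxcr6 stood at 224, 376, 434, 357, 364 and 371 CPM, with -0.35 against Havcr2+ cells (adjusted p = 0.00017) and 1.22 over Tcf7+ cells (adjusted p = 5.5e-08). Cd69, which holds T cells in tissue by removing the egress receptor and is also induced by antigen, was higher than in Havcr2+ cells (0.54) and not called against Tcf7+ cells (-0.27, adjusted p = 0.078). Prdm1, of the effector and residency factor BLIMP-1, was at -0.40 and 1.55. P2rx7, a receptor for extracellular ATP, was higher than in Havcr2+ cells (0.67) and lower than in Tcf7+ cells (-0.43). Itgae, of the integrin CD103, averaged 53.7 CPM and was called in neither comparison, and Zfp683, of the residency factor HOBIT, averaged 4.3 CPM.

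Among transcription factors of T cells, 6 were higher, 6 lower and 11 not called against Havcr2+ cells, and 10 were higher, 5 lower and 6 not called against Tcf7+ cells. After thinning, 8 of the 12 called against Havcr2+ cells and 9 of the 15 called against Tcf7+ cells kept their call. Beside Klf2, Lef1, Bach2 and Tox, those higher than in Havcr2+ cells were Eomes (0.29), a factor of memory and exhausted cells, and Foxo1 (0.19). Those lower were Id2 (-0.31), Prdm1, Batf (-0.42), Ikzf3, Nfil3 and Hif1a (-0.21). Tbx21, of the effector factor T-bet, stood at 278, 327, 350, 347, 275 and 322 CPM, higher than in Tcf7+ cells (0.69) and not called against Havcr2+ cells (0.09). Zeb2, which acts with T-bet in effector cells, was at 0.87 over Tcf7+ cells.

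Receptors for cytokines and chemokines divided in a like way. Of 17 cytokine receptor genes against Havcr2+ cells, 6 were higher, 3 lower and 8 not called, and of 16 against Tcf7+ cells, 4 were higher, 4 lower and 8 not called. After thinning, 6 of the 9 called against Havcr2+ cells and 5 of the 8 called against Tcf7+ cells kept their call. Il18r1 (0.52) and Il18rap (0.30), which together form the receptor for IL-18, Il12rb2 (0.30) and Tgfbr2 (0.32) were higher than in Havcr2+ cells. Il2rb, the beta chain for IL-2 and IL-15, Il21r and Il10ra were lower than in Havcr2+ cells (-0.32, -0.37 and -0.30) and higher than in Tcf7+ cells (0.40, 0.32 and 0.60). Of the chemokine receptors, Cxcr3, the receptor for CXCL9 and CXCL10, was at 1.02 over Havcr2+ cells and -0.95 against Tcf7+ cells, and Cxcr4 at 0.85 and -0.54.

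Costimulatory receptors and signal genes were called in both directions as well. Icos (-0.55), Tnfrsf9, Tnfrsf4 (-0.95), of OX40, Tnfrsf18 (-0.40), of GITR, and Cd27 were lower than in Havcr2+ cells, which is 5 of the 10 costimulatory genes tested, and Cd28 (0.34) and Slamf6 (1.36) were higher. After thinning, 2 of the 5 lower genes (Icos and Tnfrsf9) and both higher genes kept their call. Of 14 genes of T cell receptor signalling, 4 were higher than in Havcr2+ cells, among them Cd28, Fyn (0.33) and Prkcq (0.39), 1 was lower, and 9 were not called. Against Tcf7+ cells 5 of the 14 were higher, among them Zap70 (0.57), the kinase next to the receptor, and 3 were lower. NK cell receptor genes were called in both directions against Havcr2+ cells (4 higher, 5 lower, 6 not called) and were higher or not called against Tcf7+ cells (5 higher, 8 not called). Of the 4 genes higher than in Havcr2+ cells none kept its call after thinning, 1 did with at least 2 CD8 UMIs per cell, and 2 did without cells that carried NK or gamma-delta UMIs, while 3 of the 5 lower genes kept theirs after thinning. Klrd1 and Klrc1, whose products pair as the inhibitory receptor CD94 and NKG2A, were at -0.35 and -0.43 against Havcr2+ cells and at 0.67 and 0.48 over Tcf7+ cells.

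Glycolysis genes were lower than in Havcr2+ cells or not called. Of 16 genes, 11 were lower, none higher and 5 not called (median log2 fold change -0.41), and 8 of the 11 kept their call after thinning. Pkm, of the last enzyme of the pathway, stood at 290, 262, 308, 297, 273 and 260 CPM against 531, 389, 461, 468, 382 and 412 CPM in Havcr2+ cells (-0.60, SE 0.05, adjusted p = 1.0e-08), and the ranges did not overlap. Gapdh was at -0.53, Tpi1 at -0.69, Pgk1 at -0.58, Aldoa at -0.50 and Ldha, of lactate dehydrogenase, at -0.42. Against Tcf7+ cells 3 of the 16 were higher (Aldoa, Gapdh and Pkm), 1 was lower (Hk2, -0.62), and 12 were not called. Glycolytic genes were more abundant in cells that were not T cells (Gapdh 1422 CPM), and the part of free RNA was not tested.

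Most enzymes of the pathway that 2DG and 2FF act on were not called. Of 13 genes of N-glycan branching and fucosylation tested against Havcr2+ cells, 3 were higher, 1 lower and 9 not called, and of 10 tested against Tcf7+ cells none was higher and 3 were lower. After thinning, 1 of the 3 higher and the 1 lower gene, and 1 of the 3 lower than in Tcf7+ cells, kept their call. Of the 3 higher than in Havcr2+ cells, 1 kept its call with DESeq2 and 1 without the library block. The same count was found without the 2DG, the anti-PD-L1 or the 2DG plus anti-PD-L1 library. Mgat5, of the enzyme that makes the branch that galectins bind, averaged 276 CPM, with 0.16 over Havcr2+ cells (adjusted p = 0.043) and -0.46 against Tcf7+ cells (adjusted p = 0.00065). Fut8, of the core fucosyltransferase, averaged 161 CPM and was at -0.22 against Havcr2+ cells, a call lost without the library block and without the anti-PD-L1 library or either of the libraries that combined it with 2DG or 2FF. Fut9 was at 0 in these cells, and Fut4 and Mgat3 averaged under 0.4 CPM. Interferon response genes were mostly not called (15 of 19 in each comparison), although Ly6a, of the surface protein Sca-1, was at -0.62 and 0.84. Heat shock genes were not called in 10 of 11 in each comparison. Immediate early genes were called in both directions (6 higher, 4 lower and 8 not called of 18 against Havcr2+ cells, and 3 higher, 5 lower and 9 not called of 17 against Tcf7+ cells), with Dusp2 at 0.44 and Junb at 0.35 over Havcr2+ cells. After thinning, 3 of the 6 higher and 3 of the 4 lower than in Havcr2+ cells kept their call, and none of these 10 did without the library block. Cell cycle genes, 2 of which the rule used for gating, were called in 2 of 14 and 2 of 10.

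The cells did not form an even group. They were divided by UMIs of Lag3, Gzma, Klf2 and Itga1, and both sides of a split were averaged over the same libraries, those with at least 10 cells on each side. These splits were chosen after the values had been seen and carry no test. Lag3 had a UMI in 1110 of the 2343 cells (47.4%), and its share was 19.4% in the control library (exact 95% interval 8.19 to 36.0), 43.5% with 2DG, 56.8% with 2FF (52.6 to 60.9), 44.4% with anti-PD-L1, 46.0% with 2DG plus anti-PD-L1 and 46.2% with 2FF plus anti-PD-L1. In cells that were not T cells Lag3 had a UMI in 1.13% to 3.87%. Cells with Lag3 were read more deeply than those without (median 5521 and 4708 UMIs), so depth moved with this split.

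Cells with a Lag3 UMI held more of the exhaustion genes Tox, Pdcd1 and Entpd1. Their mean over the 5 treated libraries was 2088 CPM of Tox (lowest 1764, highest 2402), 259 CPM of Pdcd1, 229 CPM of Entpd1 and 9023 CPM of Ccl5, against 1273 (1129 to 1692), 138, 161 and 5783 CPM in cells without. Ifng and Ccl3 were at 582 and 487 CPM with Lag3 and at 363 and 167 CPM without. Il7r and Klf2 were lower with Lag3, at 112 and 58.2 CPM against 213 and 238 CPM, and so was Gzma, at 283 against 1029.99 CPM. Gzmb was at 350 CPM (195 to 456) against 460 CPM (262 to 666). The ranges over libraries did not overlap for Tox, Pdcd1, Entpd1 and Gzma, and overlapped for Ccl5, Ifng, Ccl3, Il7r, Klf2 and Gzmb.

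Gzma marked a smaller set. At least 3 Gzma UMIs were found in 319 of the 2343 cells (13.6%), namely in 1 of 36, 39 of 453, 96 of 562, 68 of 504, 85 of 537 and 30 of 251 cells, and no Gzma UMI in 1891 (80.7%). The top 10% of the cells of a treated library held 85.8% to 99.0% of its Gzma UMIs. In the 5 treated libraries, cells with at least 3 Gzma UMIs held a mean of 1624 CPM of Gzmb, 604 CPM of Prf1 and 10199 CPM of Ccl5, against 233, 254 and 7059 CPM in cells without Gzma. Klf2 was at 569 CPM (406 to 858) against 79.5 CPM (42.7 to 134), Cx3cr1, a receptor of circulating effector cells, at 238 against 52.6 CPM, and Klrg1, another marker of such cells, at 59.0 against 8.79 CPM. Of 4 exhaustion genes measured here, 3 were lower, with Tox at 762 CPM (642 to 997) against 1839 CPM (1610 to 2131), Pdcd1 at 109 against 216 CPM, and Lag3 at 120 against 252 CPM. Entpd1 was the exception, at 293 CPM (183 to 407) against 188 CPM (167 to 229). Cxcr6 and Itgae were lower as well, at 222 and 27.0 CPM against 404 and 57.9 CPM.

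NK cell and gamma-delta T cell transcripts were higher by mean with Gzma. Klrb1c, of the NK cell receptor NK1.1, was at 86.8 CPM (17.7 to 148) in cells with at least 3 Gzma UMIs and 1.20 CPM in cells without, Tyrobp, an adaptor of NK and myeloid cells, at 147 against 35.04 CPM, and Trdc, the constant part of the delta chain, at 29.2 against 5.27 CPM. Cd8a was at 497 against 658 CPM. The ranges over libraries overlapped for Tyrobp (23.6 to 269 against 24.3 to 54.0), Trdc (0 to 54.9 against 0 to 21.1) and Cd8a (379 to 698 against 606 to 713). Those of Klrb1c did not overlap. In the 2DG library 84 Trdc UMIs came from 13 of 453 cells. How many of the Gzma-rich cells were NK or gamma-delta T cells was not measured, and their median depth was 4206 UMIs against 5209.

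A Klf2 UMI, found in 557 of the 2343 cells (23.8%), divided Tox and Gzma as well. Over the 5 treated libraries, cells with Klf2 held 1093 CPM of Tox (972 to 1221) and 132 CPM of Pdcd1, against 1858 (1619 to 2220) and 221 CPM in cells without. Gzma was at 1868 CPM (1089 to 2445) with Klf2 and 276 CPM (130 to 570) without, and Cx3cr1 at 137 and 57.1 CPM, so the ranges of Tox and Gzma did not overlap. Tyrobp (108 against 32.04 CPM), Cd74 (441 against 141 CPM) and Klrb1c (32.3 against 3.95 CPM) were higher with Klf2 too, and Cd8a was lower (516 against 681 CPM), so transcripts of other cells moved with this split and their part was not tested. Itga1 divided other genes. Over the 6 libraries, cells with an Itga1 UMI held 31.1 CPM of Xcl1 (8.45 to 92.6) against 206 CPM (50.4 to 384) in cells without, and 75.7 against 29.5 CPM of Itgae, whereas Ccl5 was at 7058 and 6714 CPM. Tyrobp and Cd74 were lower with Itga1, at 34.1 and 143 against 84.7 and 361 CPM, and their part was not tested either. Median depth was 4610 UMIs with Klf2 and 5156 without, and 5146.5 with Itga1 and 4893 without.

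**Figure D4:**
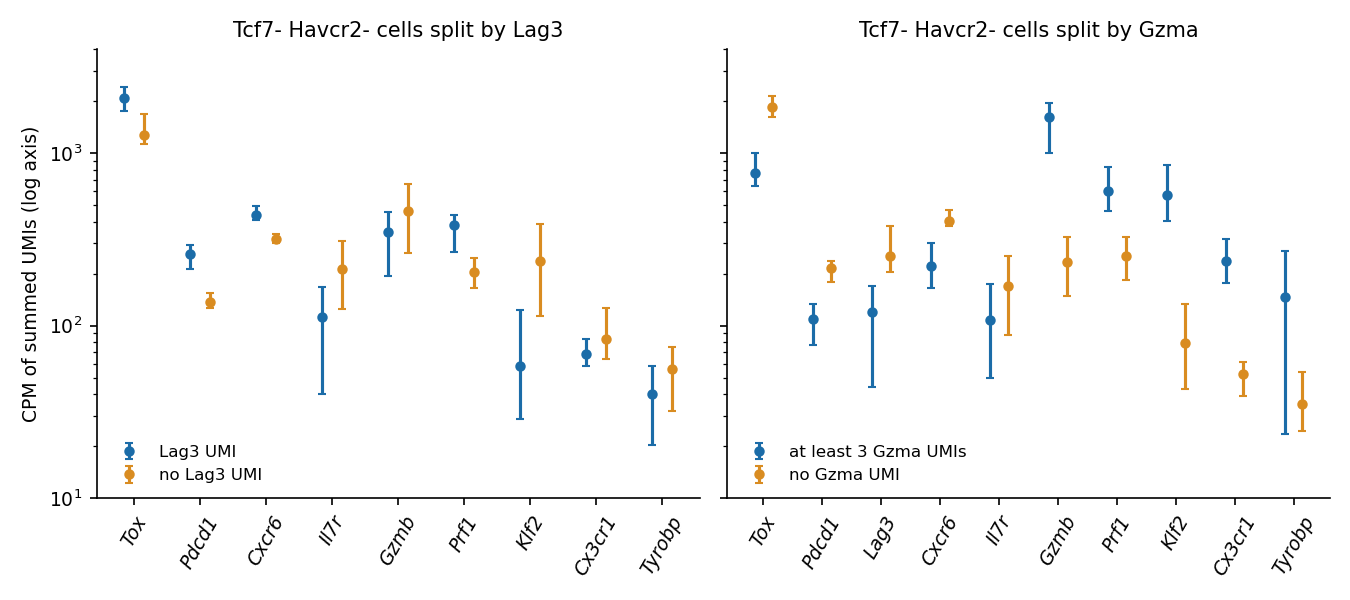
Mean level (points) and lowest and highest library (bars) of 9 or 10 genes in Tcf7- Havcr2- cells with and without a Lag3 UMI (left) and with at least 3 or no Gzma UMIs (right), in CPM of summed UMIs on a log axis, over the 5 treated libraries. Tox and Pdcd1 are higher with Lag3 and lower with Gzma, and Gzmb, Klf2 and Cx3cr1 are higher with Gzma.

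Tcf7- Havcr2- cells were next divided by residency and circulation receptors. An Itga1 or Itgae UMI with none of the circulation receptor genes, Ccr7 and S1pr1 among them, was found in 1209 cells, and a UMI of those genes without Itga1 or Itgae in 141. Both kinds were found in 76 cells and neither in 917. Cells of the first kind made up 44.4%, 55.0%, 55.2%, 49.2%, 48.2% and 50.6% of the Tcf7- Havcr2- cells of the 6 libraries, and those of the second kind 2.78%, 5.08%, 4.09%, 7.74%, 7.82% and 5.18%. The exact 95% intervals of the first share overlapped between all libraries, with 50.9% to 59.3% for 2FF, the highest, and 43.9% to 52.6% for 2DG plus anti-PD-L1, the lowest of the treated. The control library had 1 cell of the second kind and was left out of the comparison, which was made over 5 libraries in the same way. Of 6158 genes tested, 216 were higher and 238 lower in cells with a residency marker (7.37% called; 3.51% higher and 3.86% lower), and the median log2 fold change was -0.011.

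Cells with a residency marker held more of most inhibitory receptors. Of 15 genes of that list tested, 8 were higher, 1 lower and 6 not called. Ctla4 was at 559, 851, 588, 936 and 752 CPM in the 5 libraries against 254, 301, 230, 477 and 440 CPM in cells with a circulation marker (log2 fold change 1.12, SE 0.13, adjusted p = 8.6e-06), higher in 5 of 5 and with no overlap. Tigit (1.42), Cd244a (1.40), Lag3 (1.17), Cd38 (1.06), Pdcd1 (0.97), Rgs16 (0.63) and Tox (0.50) were higher, and Tnfrsf9 (-1.02) was lower. The call of Tox (adjusted p = 0.024) was lost in 7 of 11 alternatives, among them DESeq2 (adjusted p = 0.056), the fit without the library block (0.099), thinning (0.67) and leaving out the 2DG (0.14) or the 2FF library (0.11), and that of Rgs16 in 6 of 11. Cxcr6 was at 419, 494, 427, 405 and 433 CPM against 230, 84.1, 166, 184 and 166 CPM (1.35, SE 0.18, adjusted p = 4.7e-05). Cdh1, of E-cadherin, the ligand of CD103, was at 2.56, P2rx7 at 2.33 and the death ligand gene Tnfsf10 at 1.496. The highest genes by rank were Arnt2 (2.83), Adgrg1 (2.74), Wscd2 and Filip1, with Rbms3, Gm33843, 2900026A02Rik, Osgin1, Gm36723 and Styk1.

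Cells with a circulation marker held more Klf2, at 326, 427, 368, 394 and 137 CPM against 43.8, 49.2, 50.8, 182 and 103 CPM, higher in 5 of 5 libraries (log2 fold change of residency over circulation -2.16, SE 0.29, adjusted p = 5.8e-05). Of the circulation list, 4 of 6 tested genes were lower with a residency marker, namely Klf2, Klf3 (-2.82), Cx3cr1 (-1.32) and Itgb1 (-0.73), and none was higher. Bach2 (-1.56) and Lef1 (-1.14) were lower as well, and of the cytotoxic list 6 of 12 were lower, among them Gzma (-2.51) and Gzmb (-1.37). Gzmb was lower in 5 of 5 libraries but not called after thinning (-0.39). Gzma was lower in 4 of 5, at 199, 451, 412, 265 and 402 CPM with a residency marker against 2997, 3594, 1735, 1932 and 254 CPM with a circulation marker, the exception being 2FF plus anti-PD-L1, without which the difference was -2.97. Xcl1 was at 538, 1100, 120, 74.5 and 1123 CPM with a circulation marker against 7.43, 116, 31.5, 46.9 and 24.6 CPM (-3.49), and varied widely between libraries in the former. Il18rap (-1.32), Il12rb2 (-1.15) and Il2ra (-2.49), the high-affinity chain for IL-2, were lower with a residency marker, beside Cmah (-3.74), Rap1gap2, Aff3, Pde2a, Adk, Rasgrp2, Serpinb6b, Plxnc1, Sidt1 and Cpm.

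Transcripts of other cells moved with this comparison. The 8 NK cell markers summed to 273 to 4645 CPM in cells with a circulation marker and to 299 to 527 CPM in cells with a residency marker, and all 3 that were tested (Gzma, Tyrobp and Fcer1g) were called. The 9 dendritic cell markers summed to 58.6 to 1737 against 46.7 to 323 CPM, with 3 of 3 called, and the 8 neutrophil markers to 107 to 1843 against 34.9 to 155 CPM. Without cells that carried myeloid, B or NK UMIs 328 genes were called, 7 of the 8 higher inhibitory genes and all 4 circulation genes kept their call, and the difference in Prf1 (-0.80) became 0.11. After thinning 181 genes were called, 4 of the 8 higher inhibitory genes, 2 of the 4 circulation genes and 2 of the 6 lower cytotoxic genes kept their call, and the difference in Prf1 became 0.61.

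The treatments were set side by side with 1 mouse each, so what follows has no replicate check. A gene was counted as past the fold when its log2 ratio of CPM + 5 was over 0.58 in size and of 1 direction in every pair of libraries that differed by the treatment, over genes with at least 50 UMIs in each pair. The added 5 CPM understate the ratio of low genes. Intervals are exact 95% Poisson intervals of counting error. Several of these comparisons share the control library or the anti-PD-L1 library, and each first pair includes the control library with its 36 cells.

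A gene had to pass in 3 pairs for anti-PD-L1 but in 2 for 2DG and for 2FF. The rule was thus stricter for anti-PD-L1, and its count cannot be set against theirs. With anti-PD-L1, 3 of 6312 genes were higher and 5 lower past the fold in all 3 pairs (0.127%; 0.0475% higher and 0.0792% lower). At any size, 743 of the 6312 were higher and 714 lower in all 3 pairs. The rest, the larger part, did not keep 1 direction. Kdm6b, of an enzyme that removes methyl groups from histone H3, stood at 72.6 CPM (37.5 to 127) in the control library and 153 (138 to 169) with anti-PD-L1, at 118 (105 to 132) with 2DG and 246 (228 to 265) with both, and at 124 (111 to 138) with 2FF and 214 (193 to 238) with both. Its log2 ratios were 1.03, 1.03 and 0.76, and the intervals did not overlap in any pair. In the same pairs the T cells that did not meet the rule for CD8 T cells together gave 0.72, 0.96 and 0.21. Havcr2+, Tcf7+ and cycling CD8 T cells are not among those. The other genes named by rank were 2310016D23Rik, Arl5b, Sytl3 and Cox20 as higher and Hist1h1d, Slc15a2, Sh2d3c, Ago1 and Rsrp1 as lower. Arl5b, Sytl3 and Cox20 were not past the fold in every pair, with smallest ratios of 0.53, 0.51 and 0.50, and neither were Sh2d3c, Ago1 and Rsrp1, with smallest ratios in size of -0.54, -0.53 and -0.53.

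Il2ra, a cytokine receptor gene that the marker list of CD4 and regulatory T cells also holds, was past the fold with anti-PD-L1. It stood at 0 CPM in the control library (upper limit 22.3), 21.1 with 2DG, 26.1 with 2FF, 36.4 (29.4 to 44.6) with anti-PD-L1, 83.3 (73.0 to 94.8) with 2DG plus anti-PD-L1 and 74.4 (61.9 to 88.7) with 2FF plus anti-PD-L1, and was also past the fold with 2DG and with 2FF. With no UMI in the control library, the first ratio of each of these comparisons rests on the added 5 CPM, and the upper limit of the control lay above the level with 2DG. In inhibitory receptor genes the list median was 0.052, 0.17 and -0.17 in the 3 pairs, and none of 16 was past the fold. Residency genes had medians of 0.074, -0.019 and -0.0077, and none of 15 was past the fold. Circulation genes had medians of 0.61, 0.89 and 0.090, with none of 6 past the fold in all 3 pairs. The neutrophil genes S100a8 and S100a9 were lower past the fold, and the control library, in the first pair, held the most of both.

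With 2DG, 42 of 6188 genes were higher and 40 lower past the fold in both pairs (1.33%; 0.679% higher and 0.646% lower). At any size, 1295 of the 6188 were higher and 1623 lower in both pairs. The rest, the larger part, did not keep 1 direction. All 3 dendritic cell markers that could be measured were lower past the fold, with list medians of -2.73 and -0.93. Of the heat shock genes 4 of 11 were lower (Hspa1a, Hspa1b, Hsph1 and Bag3) and none higher, with list medians of -0.45 and -0.089. Hspa1b, whose sequence is nearly that of Hspa1a so that reads may be split between them, stood at 605 CPM (492 to 735) in the control library and 181 (164 to 198) with 2DG, and at 82.9 (72.2 to 94.8) with anti-PD-L1 and 12.2 (8.42 to 16.996) with both. Its log2 ratios were -1.72 and -2.36, and in Havcr2+ cells of the same libraries they were -1.36 and -1.55. Cells that were not T cells gave -0.80 and -2.00, so Hspa1b was lower with 2DG in each of these classes.

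Itgav, of the integrin alpha V chain, stood at 290 CPM (214 to 385) in the control library and 610 (580 to 642) with 2DG, and at 578 (549 to 608) with anti-PD-L1 and 1166 (1126 to 1207) with both, a log2 ratio of 1.06 and 1.01. It was higher with 2FF too, at 830 CPM alone and 942 CPM with anti-PD-L1, and the control library held the lowest level of the 6. Ece1, of an endothelin-converting enzyme (1.56 and 1.36), Gm15511, an uncertain non-coding gene (1.75 and 1.77), and Gm13684 (1.22 and 1.64) were higher, and Slc15a2, Tex14 and Klhl2 lower. Of the lists, Gzmb (1.24 and 0.87), Satb1 (0.86 and 0.92), Csf1 (0.65 and 0.88) and Dusp2 (0.71 and 0.72) were higher and Atf3 (-2.45 and -0.70) was lower. Glycolysis genes had medians of -0.30 and -0.20, with none of 15 past the fold, and N-glycan genes 0.12 and -0.067, with none of 9.

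With 2FF, 41 of 6527 genes were higher and 47 lower past the fold in both pairs (1.35%; 0.628% higher and 0.72% lower). At any size, 1656 of the 6527 were higher and 1550 lower in both pairs. The rest, the larger part, did not keep 1 direction. Of 10 cytokine and chemokine genes, 3 were higher and none lower, namely Xcl1, Ccl3 and Ccl4. Xcl1 stood at 30.2 CPM (9.82 to 70.6) in the control library and 220 (203 to 238) with 2FF, and at 90.6 (79.4 to 103) with anti-PD-L1 and 177 (157 to 198) with both, log2 ratios of 2.67 and 0.93. Havcr2+ cells gave 2.499 and 0.04 for Xcl1. Ccl3 stood at 193 and 381 CPM and at 227 and 565 CPM in the same pairs (0.96 and 1.30), and Ccl4 at 955 and 1938 CPM and at 1008 and 1627 CPM (1.02 and 0.69). Ccl3 and Ccl4 were past the fold in Havcr2+ cells as well (2.24 and 1.07, and 1.40 and 0.75).

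The genes named by rank were Olfr60, Astl, Xcl1 and Naa20 as higher with 2FF and Extl3, Cmah, Gm43305 and Zfp141 as lower. Olfr60, Astl and Naa20 had 1 or 2 UMIs each in the control library, so their first ratio rests on the added 5 CPM. Klre1, an NK cell receptor gene, was higher (0.69 and 0.78), and Tyrobp (-0.71 and -0.83), Fcer1g (-0.62 and -0.84) and Atf3 were lower. N-glycan genes had medians of 0.11 and -0.044 with 2FF, and none of 9 was past the fold. The 3 dendritic cell markers that could be measured (H2-Aa, H2-Ab1 and H2-Eb1) were lower past the fold with 2FF as with 2DG, with list medians of -1.23 and -1.68. Tcf7- Havcr2- cells of the control and anti-PD-L1 libraries, the sides of these pairs without 2DG or 2FF, held 840 and 389 CPM of that list, and its part in the other ratios was not tested.

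**Figure D5:**
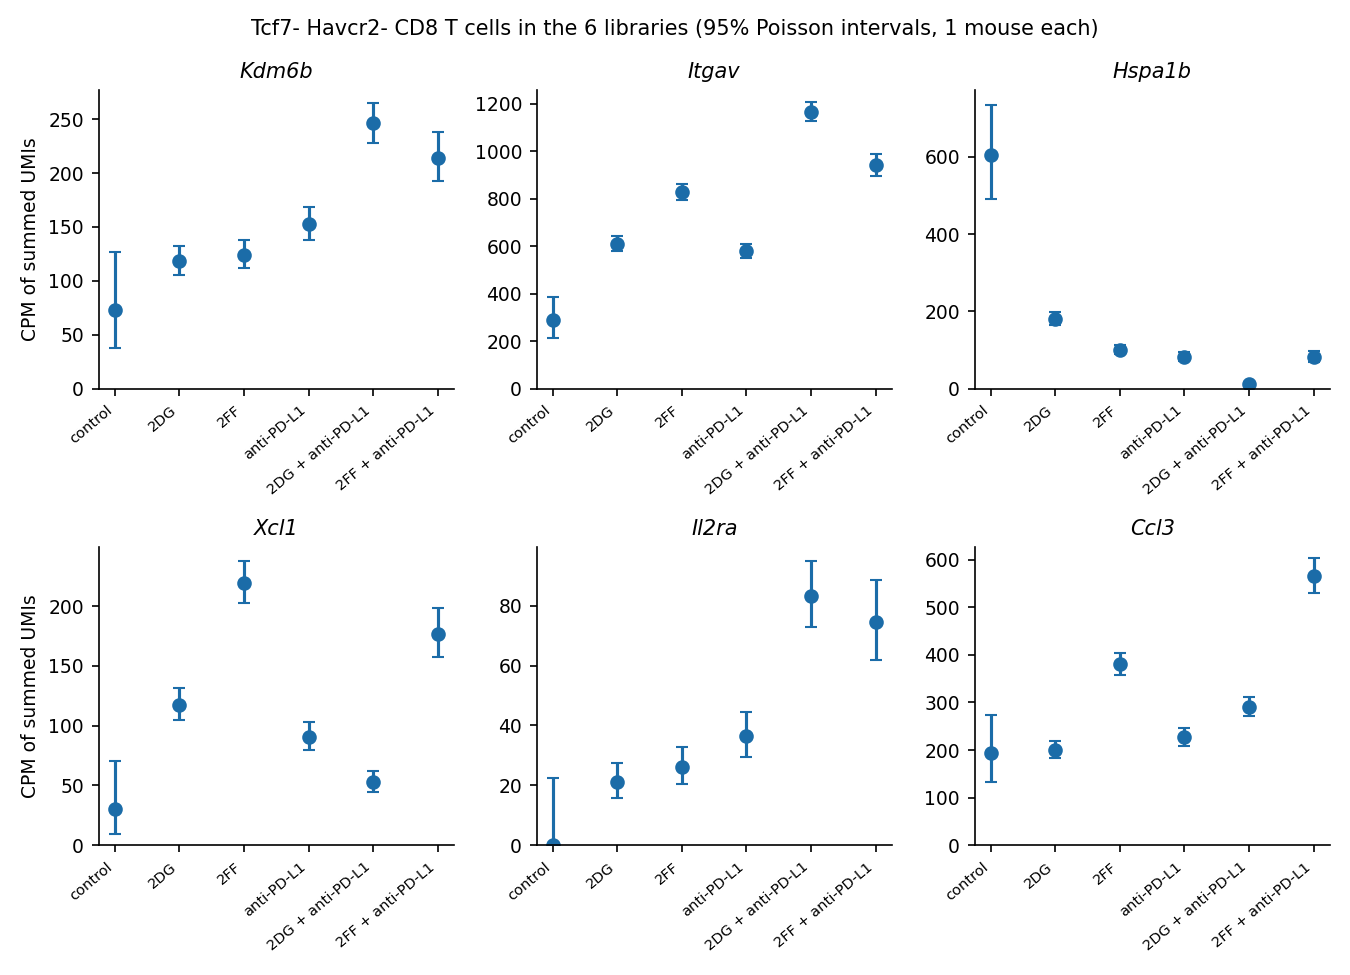
Level of 6 genes in Tcf7- Havcr2- CD8 T cells of each library (y axes, CPM of summed UMIs from 0, x axes the 6 treatments, 1 mouse each), with exact 95% Poisson intervals of counting error. Kdm6b is higher with anti-PD-L1 in each of its 3 pairs, Hspa1b is highest in the control library and lowest with 2DG plus anti-PD-L1, and Xcl1 and Ccl3 are higher with 2FF in both pairs.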

How the data were processed

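Single-cell libraries of 6 mice were analysed, 1 per treatment. For 32285 genes and each barcode called as a cell, whole UMI counts were deposited by the authors, made with Cell Ranger 7.0.0 on mm10 per the file headers, whereas the labels' processing notes name Cell Ranger 3.1.0. Counts were neither normalized nor filtered. Barcodes, gene identifiers and symbols were used as deposited. A cutoff of 250 genes and 5% mitochondrial UMIs was applied, and the rule for Tcf7- Havcr2- cells then left 2343 cells. The members and the gene lists were chosen with earlier results of these data known. Deposited UMIs per library ranged from 61859753 to 73885214.

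Cell groups were compared within libraries with edgeR 4.0.16 (R 4.3.3) on summed counts, with TMM scaling, filterByExpr, the library as a block because each mouse supplied both groups, and a threshold of 0.05 on the adjusted p. Genes of the gate were not called. DESeq2 1.42.0, no filter, no block, other gates, thinning to 2000 UMIs, leaving out each library and leaving out cells that resembled simulated doublets (3573 marked, 72 of them Tcf7- Havcr2-, and kept in the values given) were tried as alternatives. On simulated data, the 3 comparisons recovered 77%, 67% and 34% of 2-fold changes and 11%, 14% and 10% of 1.5-fold changes. The simulated spread between libraries was set in advance (dispersion 0.05) and not estimated from these data. These rates therefore need not hold for the real comparisons. Named genes were those of the lists and, for each edgeR comparison, the 12 highest and 12 lowest called genes of 1 direction in every library with a mean of at least 20 CPM. For anti-PD-L1 the 5 highest and 5 lowest and for 2DG and 2FF the 4 highest and 4 lowest genes by the smallest ratio over the pairs were named. Mitochondrial, ribosomal protein, antigen receptor and gate genes, and genes under 20% of the level in another cell class of the same library, were not ranked. Some genes of the lists, which the counts and gates include, are not reported here. Intervals cover counting error only. P-values measure how the difference between cell groups of the same mouse varies over 6 mice that also differ in treatment. For residency against circulation markers there were 5 mice. Coordinates are those of GENCODE M21 (GRCm38, which mm10 names).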

Additional observations from a re-analysis of the deposited data

How the results depend on the processing

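Against Havcr2+ cells, 1774 genes were called. Without the library as a replicate block 325 were called (163 higher and 162 lower), all 325 of which were also called with it, and after thinning to 2000 UMIs 639 of the 7936 still tested. Leaving out each library gave 1327 to 1938. Against Tcf7+ cells, 1284 genes were called, 586 without the replicate block, 541 of 2681 tested after thinning, and 948 to 1456 with a library left out. For residency against circulation markers, 454 genes were called, 300 with DESeq2, 763 with no filter on low counts, 181 after thinning, and 284 to 420 with a library left out, the lowest without 2FF. The replicate block moved this last count by less than 1.5 times (312 without it). The pairing comes from the mouse, which supplied both groups of cells. The share of Tcf7- Havcr2- cells, 37.7% of non-cycling CD8 T cells, was 15.4% of all T cells and 62.1% after thinning. Genes past the fold with anti-PD-L1 went from 8 to 23 with at least 20 UMIs in place of 50, those with 2DG from 82 to 143, and those with 2FF from 88 to 165, or to 139 with 1 CPM added in place of 5. The difference in median genes per cell from Havcr2+ cells was -396 and became -6.5 after thinning, and that from Tcf7+ cells was -164 and became 26, in the opposite direction. The difference in median UMIs from Tcf7+ cells was -859 without marked doublets. These depth differences carry no test. Of all genes called against Havcr2+ cells, 77 of the 1613 still tested changed sign after thinning, 21 of 1709 without cells carrying myeloid, B or NK UMIs, 19 of 1718 without marked doublets and 7 of 1714 with no macrophage UMI, as did 14 of 799 against Tcf7+ cells and 8 of 362 between the marker groups after thinning. Between the marker groups, 7 of 430 changed sign without cells carrying myeloid, B or NK UMIs, and against Tcf7+ cells 1 of 1259 did with at least 2 CD8 UMIs. The cause was not tested. Among the named or listed genes those against Havcr2+ cells were Mrc1 (0.57 without doublets), Rsad2 (0.11 without doublets and 0.094 after thinning), Nr4a3 (-0.028 after thinning), Jun (-0.00061 after thinning) and Cd14 (0.21 after thinning). Against Tcf7+ cells it was Tubb5 (0.087 after thinning), for residency against circulation markers Prf1 (0.61 after thinning and 0.11 without cells carrying myeloid, B or NK UMIs), and with anti-PD-L1 Cox20 (-0.47 after thinning). Of the named or listed genes, 52 of 144 against Havcr2+ cells, 44 of 127 against Tcf7+ cells and 28 of 85 between the marker groups were tested and kept their call under all alternatives run (134, 88 and 65 were tested in all of them), and 107, 99 and 56 did when the fits without the block and after thinning were set aside. The 36 cells of the control library limit every value that rests on it.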

Other observations

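A segment of the T cell receptor beta chain (Trbv) had a UMI in 11.1% to 19.9% of Tcf7- Havcr2- cells. The same segment was most frequent in some mice and not in others, and the counts were small. Trbv13-3 led with 2DG (24 of 90 cells with a segment, 26.7%, exact 95% interval 17.9 to 37.0) and with 2FF (14 of 66, 21.2%), Trbv15 with anti-PD-L1 (21 of 84, exact 95% interval of the share 16.2% to 35.6%), and Trbv29 with 2DG plus anti-PD-L1 (16 of 88, 18.2%, 1 cell more than Trbv13-3 with 15) and with 2FF plus anti-PD-L1 (9 of 39, 23.1%, 11.1 to 39.3). Receptor sequences were not analysed here, so cells that share a segment need not share a receptor.

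At least 3 UMIs of the NK cell markers other than Gzma were found in 84 of the 2343 cells (3.59%). Their median depth was 7163 UMIs. Over the 5 treated libraries, without the 3 such cells of the control library, they held a mean of 697 CPM of Tyrobp, 2610 CPM of Cd74, an antigen presentation gene, and 297 CPM of Cd8a.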
